A study of Mus musculus with 24 samples.

Results

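The effect of a high magnesium diet on the healthy aorta was measured in Wild-type (WT) mice. The comparison takes 12 of the 24 mice of the series, chosen by their labels for genotype and diet alone: 6 WT mice on high magnesium (0.48% of the feed by weight) and 6 WT mice on minimal magnesium (0.05%). The other 12 mice were Klotho-/- (KO), split in the same way between the diets. All 24 were labelled C57/BL6 and ate their diet from birth until 8 weeks of age, when the thoracic aorta was cleaned and frozen, and RNA was later isolated with TRIzol without DNase treatment. WT mice on minimal magnesium were the study's control group, and no group on a standard diet is among the 24 mice.

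Magnesium is a cofactor of enzymes that use ATP, enters cells through channels and exchangers, and competes with calcium at many binding sites. In the artery wall it is known for slowing the growth of calcium phosphate crystals and the calcification of smooth muscle cells. Klotho is the coreceptor through which FGF23 makes the kidney excrete phosphate, and mice without it calcify their arteries. WT mice keep this pathway. A thoracic aorta sample holds smooth muscle, endothelium and adventitia, and in bulk RNA fewer cells of a type and less RNA per cell cannot be told apart. The deposited tables name genes by strain-specific identifiers, and 0 of 41012 were found in the tables of gene names, so named pathways, cell type markers, the Klotho transcript and sequences are not analysed here.

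Mouse 4 and mouse 38, both labelled WT on minimal magnesium, stood apart from the other 10 WT libraries. On the first principal component of the 12 libraries (29.7% of the variance) they scored 107.2 and 79.6, while the others lay between -38 and -2.7. The second component (28% of the variance) split the libraries by mouse number, with mice 1 to 18 at 32.5 to 57.5 and mice 20 to 40 at 11.8 or below, mouse 38 the lowest at -86.2. The labels do not say what these 2 ranges of numbers stand for, and they were spread unevenly. The low range held 3 WT mice on minimal and 2 on high magnesium, and 1 and 4 KO mice. The high range held 3 and 4 WT mice, and 5 and 2 KO mice, so in KO mice diet and range were largely confounded. Each library was then placed by genes at which KO and WT libraries, leaving out the one to be placed and mice 4, 20 and 38, did not overlap. Mouse 4, labelled WT, lay on the KO side at 95% of 299 such genes, within the 74.4% to 97.7% of 11 KO mice. The remaining 11 WT mice lay there at 1.32% to 25.9%, mouse 38 at 12.4%, and mouse 20, labelled KO on minimal magnesium, at 7.36%. Labels were kept, and results are also given without these mice. Total counts averaged 12917143 ± 2670980 per library on minimal magnesium and 15717527 ± 2854948 on high magnesium (SD, n = 6 each; exact permutation test, two-sided, p = 0.113, adjusted over 3 library measures 0.338). Totals also differed between the ranges, and within each the mice on high magnesium averaged more: 12293769 against 10568102 in the low range and 17429406 against 15266185 in the high range. With splits only within the ranges, chosen after seeing the data, the exact permutation p was 0.0114 (adjusted 0.0342), so depth and diet went together. The part of depth in the comparisons was not tested. Genes with a count and the share of counts in the 100 highest genes gave exact permutation p of 0.66 and 0.40.

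**Figure D1:**
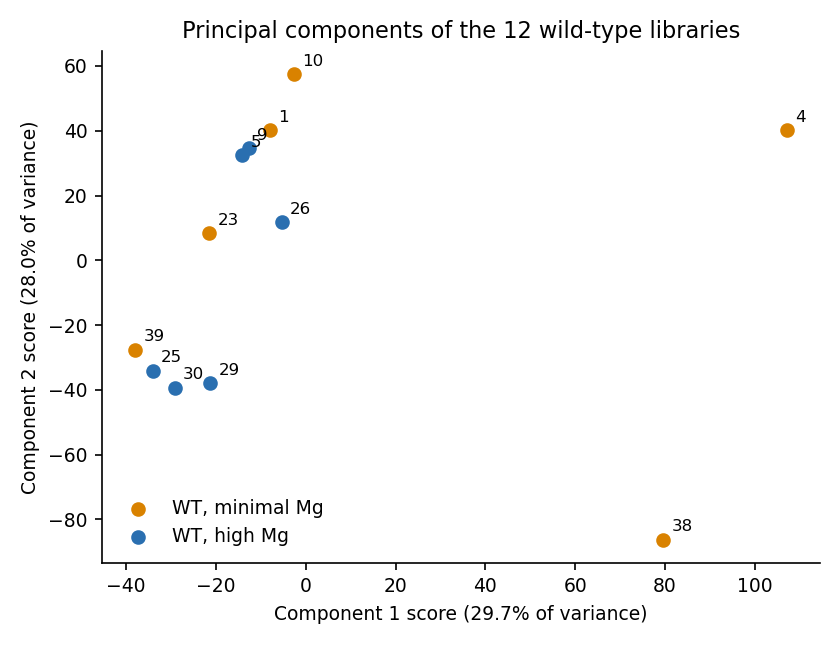
Scores of the 12 WT libraries on the first and second principal components of log2 CPM, with the mouse number beside each point. Mice 4 and 38 lie at 107.2 and 79.6 on the first component, while the 6 mice on high magnesium lie between -34.1 and -5.3 and the other 4 on minimal magnesium between -38 and -2.7.

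No gene passed the test for the diet. Of 16741 genes tested, 0 (0%) were called at a Benjamini-Hochberg adjusted p under 0.05 with edgeR's quasi-likelihood test, and the smallest adjusted p was 0.311. An unadjusted p under 0.05 was reached by 1319 genes (7.88%), of which 384 (2.29% of those tested) were higher and 935 (5.59%) lower on high magnesium. A fit of the 12 WT libraries alone also called 0 and had 296 higher and 518 lower of 15292 genes at that threshold. The 2 directions lay at different levels. The 384 had a median of 58.9 CPM (a gene's counts relative to the scaled library total) and the 935 a median of 3.3, where all genes tested had 18.4. Only 16 of the 384 but 678 of the 935 differed more than 2-fold, where over all 16741 genes 47 were estimated past 2-fold higher and 1096 lower. Intervals were wider at low levels, so genes there need a larger change to reach that p. Limma-voom with library weights also called 0 genes (0%), with 1108 higher and 949 lower at an unadjusted p under 0.05.

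The intervals show how large an effect the 12 mice leave out. Over genes, the 95% interval of the log2 fold change ran a median of 0.48 to either side of the estimate. The median upper end excluded rises beyond 1.31-fold, and the median lower end falls beyond 1.37-fold. Each median was taken separately, so together they do not describe a single gene. In either direction together the excluded change began at 1.59-fold for the median gene, at or below 1.23-fold for 10% of genes and at or above 3.75-fold for another 10%. For 11609 genes (69.3%) the whole interval lay within 2-fold of no change, and for 7246 (43.3%) within 1.5-fold. These are intervals of single genes. With an equivalence test adjusted over all genes (adjusted p under 0.05), 12140 lay within 2-fold. That test is 1-sided at either limit, as a narrower interval than 95% would be, so it is not a stricter form of the 11609.

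Precision followed the level up to about 100 CPM and then declined. CPM is not corrected for gene length, so the bins order genes by their counts. Among 1656 genes under 1 CPM, changes beyond 2.72-fold were excluded at the median gene, and 19.7% of genes had an interval within 2-fold. At 1 to 3 CPM (2185 genes) these values were 2.16-fold and 42.2%, and at 3 to 10 CPM (2657 genes) 1.75-fold and 61.3%. A weakly expressed gene could thus differ 2-fold between the diets without this design showing it. The tightest intervals belonged to the 4392 genes at 30 to 100 CPM, with 1.35-fold excluded at the median, 90.2% of intervals within 2-fold and 69.2% within 1.5-fold. At 10 to 30 CPM (3746 genes) 84.2% lay within 2-fold, and at 100 to 300 CPM (1573 genes) 82.5%.

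The 532 genes over 300 CPM were less precise, although their counts were the highest. Their median gene excluded changes beyond 1.85-fold, and 60.2% of intervals lay within 2-fold. The spread between mice was larger there, with a median SD of log2 CPM of 0.53 on minimal and 0.39 on high magnesium, against 0.28 and 0.20 at 30 to 100 CPM. The intervals were also not centred alike. The median log2 fold change was -0.26 under 1 CPM, -0.04 at 10 to 30 CPM and 0.06 at 100 to 300 CPM. Under 1 CPM the median bound, taken separately for each direction, excluded rises beyond 1.67-fold but falls only beyond 2.35-fold. From 30 CPM upwards the order was turned, and over 300 CPM rises beyond 1.54-fold and falls beyond 1.27-fold were excluded. Without mice 4 and 38 the median under 1 CPM was 0.06 and intervals there within 2-fold came to 12%. Over all 16741 genes 66.1% then lay within 2-fold, and without mice 4 and 20 the share was 71.3% of the genes tested.

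**Figure D2:**
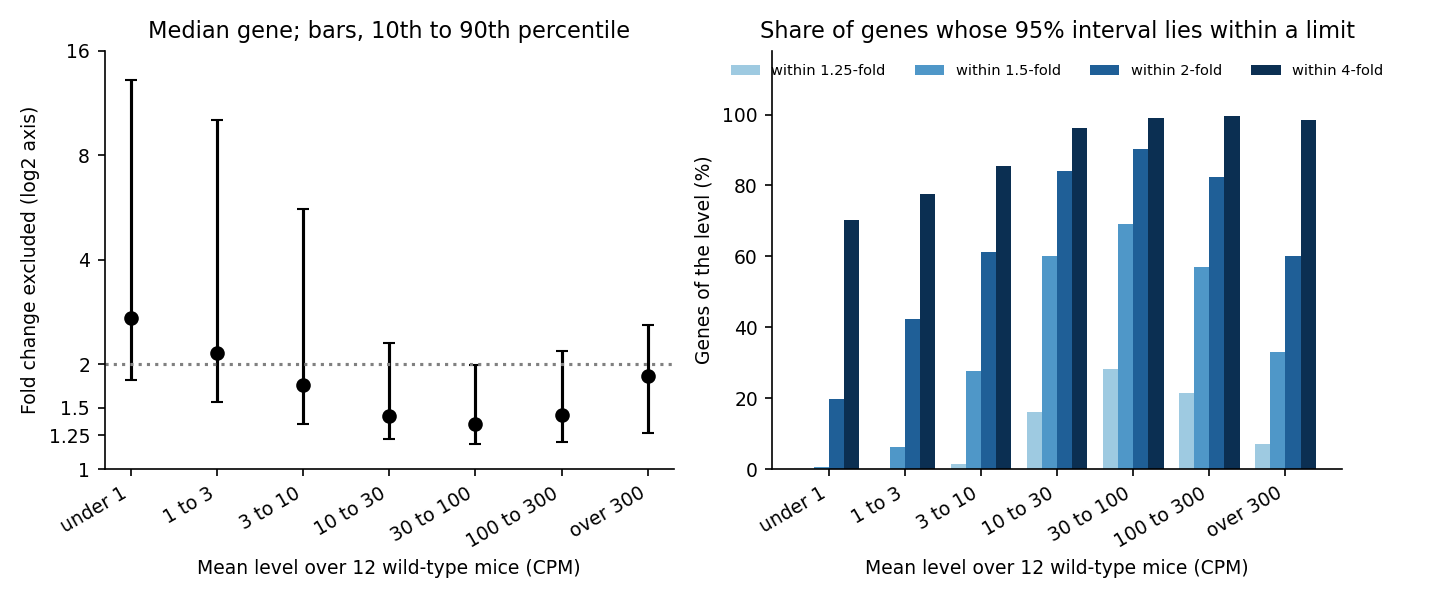
Left, the fold change excluded by the 95% interval of diet in WT mice (log2 axis) by mean CPM, with points for the median gene and bars from percentile 10 to percentile 90. Right, the percent of genes of each level whose interval lies within each of the limits in the key, highest for 2-fold at 30 to 100 CPM (90.2%) and lowest under 1 CPM (19.7%).

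A few identifiers are described one by one, the 2 with the smallest p in each direction among genes of at least 1 CPM. They were picked for their p, so their values are a description. MGP_C57BL6NJ_G0029791 had 95.8, 131 and 150 CPM (lowest, median and highest mouse) on minimal magnesium and 147, 164 and 178 CPM on high magnesium. The groups met only at mouse 4 (150 CPM) and mouse 30 (147 CPM). The log2 fold change was 0.37 ± 0.10 (SE), with a 95% interval of 0.17 to 0.58, and edgeR's adjusted p was 0.311. In KO mice the same gene moved by 0.35 ± 0.10 (edgeR adjusted p = 0.0135), from 123 ± 9.91 to 157 ± 11 CPM (SD, n = 6 each). The effects of the 2 genotypes differed by -0.03 ± 0.14 (edgeR interaction, adjusted p = 0.921).

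MGP_C57BL6NJ_G0026775 stood at 80.7, 109 and 113 CPM on minimal and 117, 140 and 144 CPM on high magnesium. Every mouse on high magnesium was above every mouse on minimal magnesium. Its log2 fold change was 0.39 ± 0.10, with an interval of 0.17 to 0.60. In KO mice it averaged 105 ± 10.5 and 109 ± 14.9 CPM, a log2 fold change of 0.06 ± 0.10 (edgeR adjusted p = 0.711), and the difference between genotypes did not pass the test (edgeR interaction -0.33 ± 0.15, adjusted p = 0.147).

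MGP_C57BL6NJ_G0001198, with a single annotated transcript of 3656 bases, stood at 0.712, 1.1 and 1.21 CPM on minimal and 0.225, 0.397 and 0.642 CPM on high magnesium. No mouse on high magnesium reached the lowest on minimal magnesium. These levels rest on 8 to 17 counts per library on minimal and 3 to 10 on high magnesium. The log2 fold change was -1.27 ± 0.30, with an interval of -1.90 to -0.65. In KO mice the estimate had the opposite sign, 0.75 ± 0.29 (edgeR adjusted p = 0.0581), from 0.758 ± 0.275 to 1.29 ± 0.405 CPM (SD, n = 6 each). The diet effect differed between the genotypes by 2.03 ± 0.42 on the log2 scale (edgeR interaction, adjusted p = 0.00359), or 1.79 ± 0.41 without mice 4 and 20 (adjusted p = 0.00769). The gene was picked for its lower level on high magnesium in WT mice. That WT estimate is part of the interaction, so the choice favours this difference.

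MGP_C57BL6NJ_G0025103 had the smallest p of all genes (0.000253, edgeR, unadjusted). It stood at 0.413, 3.78 and 18.6 CPM on minimal and 0.256, 0.65 and 1.35 CPM on high magnesium, and the groups overlapped. Mouse 38 held 18.6, mouse 1 held 10.6 and mouse 4 held 5.44 CPM, while mice 10 and 39 lay within the range of high magnesium at 0.832 and 0.413. Its log2 fold change was -3.18 ± 0.73, with an interval of -4.69 to -1.66, and it was -2.46 without mouse 38, -2.28 without mice 4 and 38 and -1.93 with limma-voom. In KO mice it averaged 6.77 ± 3 CPM on minimal and 3.23 ± 2.13 on high magnesium (log2 fold change -1.07 ± 0.66, edgeR adjusted p = 0.232).

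**Figure D3:**
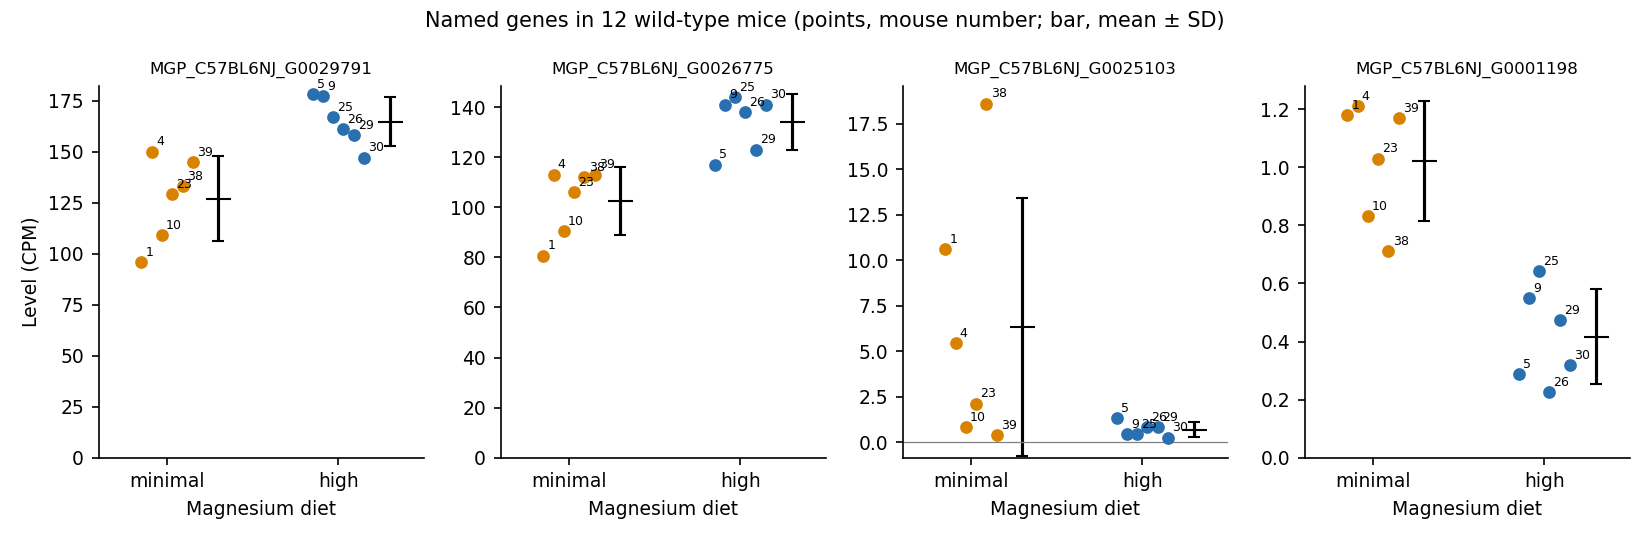
Level in CPM of the 4 named identifiers in each of the 12 WT mice, numbered, with mean and SD of each group (n = 6) to the right of its points. The groups do not overlap for MGP_C57BL6NJ_G0026775 and MGP_C57BL6NJ_G0001198, and mouse 38 is the highest point for MGP_C57BL6NJ_G0025103.

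Groups without overlap were rare. Over all genes, 20 (0.119%) were higher in every mouse on high magnesium than in any on minimal magnesium, and 15 (0.0896%) were lower in every one. Of the 924 splits of 12 mice into 6 and 6, a single split separates a gene in a given direction. Both shares lay near that rate, so the counts are not read as a result about these genes. The rate takes all splits of the mice as equally likely, and whether the diet had a part was not tested. The 20 had a median of 71.9 CPM and a median log2 fold change of 0.28, with 2 past 2-fold. The 15 had a median of 1.47 CPM and a median log2 fold change of -0.65, with 7 past 2-fold.

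The genes lower at an unadjusted p were most often highest in mouse 38. A gene picked as lower on high magnesium nearly always has its highest mouse on minimal magnesium, as 933 of the 935 had. Of these 933, 61.3% were highest in mouse 38 and 25.5% in mouse 4, where among the 10950 tested genes with their highest mouse on minimal magnesium the shares were 22.6% and 30.1%. Of 381 higher genes with their lowest mouse on minimal magnesium, mouse 1 was lowest at 38.6% and mouse 4 at 38.1%, where among all 10626 such genes they were lowest at 18.8% and 37.3%. The lower genes made up 70.9% of those at an unadjusted p under 0.05 with all mice, 68.1% without mouse 4 and 56.6% without mouse 38. Without mice 4 and 38, 415 genes were higher and 327 lower (44.1%), and the smallest adjusted p was 0.838 (edgeR). In a fit of the WT libraries alone without these mice, 549 were higher and 542 lower (49.7%). In the fit without mice 4 and 38 that keeps the KO libraries, the median log2 fold change of the 935 went from -1.79 to -0.25. Of these genes 638 kept their sign and 126 also their p under 0.05. The median of the 384 went from 0.42 to 0.40, with all 384 keeping their sign and 180 their p under 0.05. Both lists were chosen with all 12 mice, so these values describe them. The SD of log2 CPM between mice was larger on minimal magnesium at 74.2% of genes, and at 54.9% without mice 4 and 38.

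DESeq2 was the 1 setting run that called genes for the diet. It called 6 higher (0.0359% of 16724 genes with an adjusted p) and 210 lower (1.26%), the 4 named identifiers among them. The 210 genes were highest in mouse 38 at 197 and in mouse 4 at 10. The groups were without overlap at 3 of the 210, and in that direction at 0.0896% of all genes tested. The 210 were picked by the same contrast, which favours groups without overlap. Their median log2 fold change was -4.40 and their median level 3.9 CPM. Summed, they took 1.51% of the counts of mouse 38 and 0.266% of those of mouse 4. The other 4 WT mice on minimal magnesium gave them 0.016% to 0.0286%, and the 6 on high magnesium 0.0151% to 0.0218%. The share in the 4 was thus near that on high magnesium. In KO mice the share was 0.0995% to 0.783% on minimal and 0.0403% to 0.294% on high magnesium, above every WT mouse other than 4 and 38. KO means are not part of that contrast, but the filter on low counts used all 24 libraries. Genes low in most WT mice could pass it through KO libraries, which favours this order, so these shares are a description. A sum rests on its highest genes. By the median log2 CPM of the 210 genes, WT mouse 1 (-0.80) lay above KO mice 11, 12 and 16 (-1.01, -0.88 and -0.92), and mouse 38 (5.03) remained the highest of the 24. The 6 higher genes had a median of 104 CPM and log2 fold changes of 0.24 to 1.00. Of these 6, 2 were without overlap, where 0.119% of all genes tested were so in that direction. What the genes of mouse 38 have in common was not tested, since they carry no names.

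**Figure D4:**
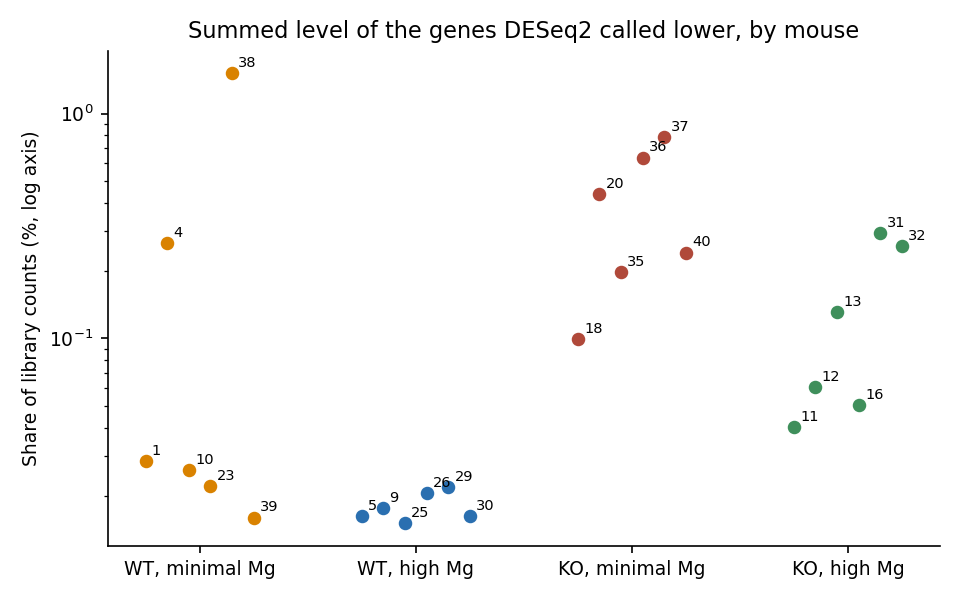
Summed share of library counts (percent, log axis) of the 210 genes that DESeq2 called lower on high magnesium in WT mice, 1 numbered point per mouse in each of the 4 groups. Mouse 38 (1.51%) and mouse 4 (0.266%) lie above the other 10 WT mice, all of which are at or under 0.0286%.

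The diet effects in the low and the high range of mouse numbers share no library. Over 15085 genes of at least 1 CPM they correlated at Pearson's r = 0.046 and Spearman's rho = 0.008, and 49.6% had the same sign in both. Without mice 4 and 38 these values were 0.078, 0.183 and 59.1%. These values are taken over genes, and genes of 1 mouse are not independent of each other. The 4 named identifiers kept their sign in both ranges: log2 fold changes in the low and the high range were 0.57 and 0.22 for MGP_C57BL6NJ_G0029791 and 0.43 and 0.31 for MGP_C57BL6NJ_G0026775. They were -1.34 and -1.21 for MGP_C57BL6NJ_G0001198 and -2.63 and -3.53 for MGP_C57BL6NJ_G0025103. All 4 were picked for their p over both ranges together, so the choice favours agreement in sign, and these values are a description. Each range alone called 0 genes with edgeR, as did the fit with the range as a term.

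The same contrast in KO mice gives the WT intervals a scale. With the same number of mice and the same median half-width of 0.48, diet called 4174 genes (24.9%) in KO mice. With the range of mouse numbers as a term it called 3279, and the low and high range alone called 86 and 2135, with the KO diet groups spread unevenly over the ranges. The median size of the log2 fold change was 0.17 in WT and 0.38 in KO mice, and 1143 against 2823 genes were estimated past 2-fold. Of the 4174 genes, 3786 (90.7%) had a WT interval that did not hold the KO estimate. A WT interval wholly within 2-fold was found at 3106 (74.4%), near the 69.3% of all genes tested. Among the 1649 that differed more than 2-fold in KO mice, 1444 (87.6%) had a WT interval without the KO estimate, but only 665 (40.3%) one within 2-fold. The 1960 genes higher in KO mice had a median log2 fold change of 0.69 there and -0.06 in WT mice, and the 2214 lower genes -1.0 and 0.01. Effects in WT mice were not all near 0: in 10% of the 2214 the WT estimate was -0.75 or lower. Among the 1113 lower genes past 2-fold in KO mice it had a median of -0.15 and the same sign at 58.3%, and of those with an unadjusted p under 0.05 in WT mice 94 had the same and 43 the opposite sign. These KO estimates were picked for passing a test, which favours large ones, so the counts are a description.

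Tested directly, the diet effect differed between the genotypes at 1830 genes (10.9%; edgeR interaction, adjusted p under 0.05). It was more positive in KO mice at 785 and more negative at 1045. Of the 1830, 1720 were also called for diet in KO mice, and 211 had an unadjusted p under 0.05 in WT mice. A WT interval within 2-fold was found at 1390 (76%), where all genes tested had 69.3%. WT estimates were often on the far side of 0: above 0 at 875 of the 1045 and below 0 at 698 of the 785. Since the WT estimate is part of the interaction, this tilt is favoured by the choice of genes. With the range of mouse numbers as a term the count was 1035, and without mice 4 and 20 it was 1863. It was 0 in the low and 397 in the high range of mouse numbers alone, where groups held as few as 1 mouse.

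**Figure D5:**
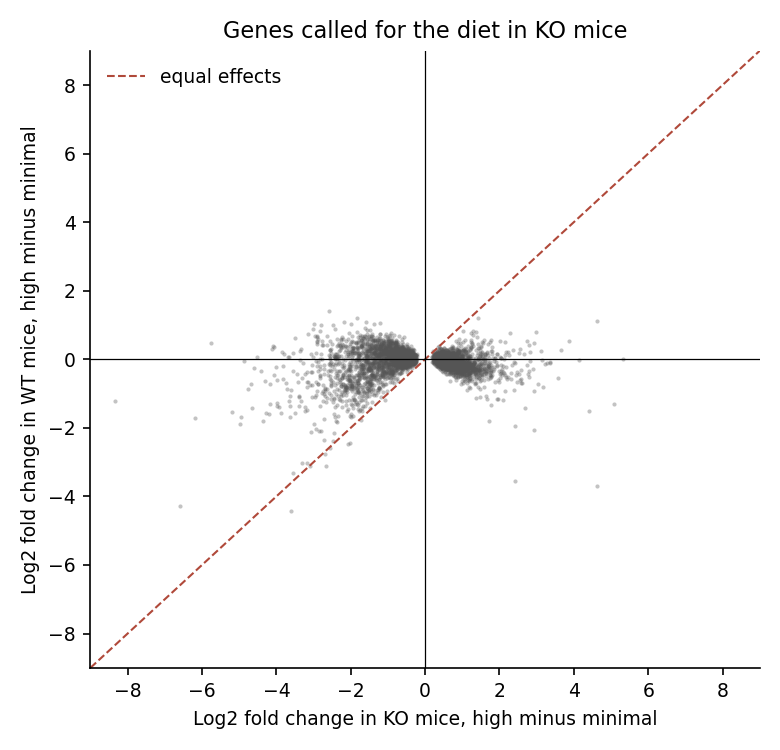
Log2 fold change of diet (high minus minimal) in WT mice against that in KO mice, 1 point for each of the 4174 genes called in KO mice. The points spread farther along the KO axis than along the WT axis, where medians are -0.06 for the 1960 higher and 0.01 for the 2214 lower genes, and some lower genes reach toward the dashed line of equal effects.

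The share each transcript took of its gene was also compared, in TPM (a transcript's level corrected for its length and the library total). Of 32339 transcripts of 9414 genes, 0 (0%) were called for a change of share (limma on log-odds, smallest adjusted p 0.9998), and 1488 (4.60%) had an unadjusted p under 0.05, with 788 higher and 700 lower. On plain shares limma also called 0. Without mice 4 and 38 limma on log-odds called 0, but the smallest adjusted p was 0.0762 and 1796 transcripts had an unadjusted p under 0.05. Without mice 4 and 20 it called 0, with a smallest adjusted p of 0.736 and 1636 at that threshold. The 95% interval of a share ran 8.51 percentage points to either side at the median transcript, and 41.2% of transcripts had an interval within 10 points of no change and 77% within 20. In genes under 3 TPM the median half-width was 19.2 points and 5.31% lay within 10 points. In genes over 100 TPM it was 4.18 points, with 88.4% within 10 and 43% within 5. Shares were bounded loosely in weakly expressed genes and closely in the highest.

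The transcript with the highest mean TPM differed between the diets in 1090 of the 9414 genes (11.6%). In these the highest mean share on minimal magnesium led the next by a median of 5.78 points, against 24.5 points over all genes. In 4001 genes (42.5%) the same transcript led in all 12 mice. Mean shares lay more than 20 points apart at 681 transcripts, and 222 of these had an unadjusted p under 0.05. A count-based test (diffSpliceDGE) called 8 transcripts of 8 genes, and the groups overlapped at every one. Each of the 8 took almost nothing in one group and varied widely in the other, as with shares of 9.65 ± 10.9% on minimal and 0.0249 ± 0.0394% on high magnesium (SD, n = 6 each).

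For the named identifiers no transcript passed the test (limma adjusted p = 1 for each one tested). MGP_C57BL6NJ_G0029791 had mean levels of 11.9 TPM on minimal and 13.3 TPM on high magnesium. The share of its 612-base transcript was 33 ± 10.7% on minimal and 21.5 ± 5.87% on high magnesium, a difference of -11.5 points with an interval of -23.9 to 0.949. Its 14967-base transcript had 8.75 ± 7.17% and 14.8 ± 3.96%, and its 16644-base transcript 24 ± 7.29% and 28.2 ± 3.78%. In MGP_C57BL6NJ_G0026775, the leading transcript of 11982 bases kept close shares of 25.3 ± 3.41% and 25.8 ± 1.59%, with an interval of -3.87 to 4.74 points. The 2110-base transcript had 21.7 ± 2.89% and 17.5 ± 2.85% (interval -7.81 to -0.541 points). MGP_C57BL6NJ_G0025103 gave little hold at the transcript level. Its 266-base transcript took 54.4 ± 42.3% of the gene on minimal and 9.19 ± 22.5% on high magnesium, from 0 to 87.3% and from 0 to 55.1% between mice. The 333-base transcript went the other way, with 0% in every mouse on minimal and 18.6 ± 36.7% on high magnesium, from 0 to 91.8%. It had the smallest unadjusted p of this gene's transcripts (limma on log-odds, 0.00322), and the interval of its share difference was -5.12 to 42.2 points.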

How the data were processed

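The deposited tables, 1 per mouse, hold the authors' estimated counts and TPM values from Salmon for 102919 transcripts, which belong to 41012 genes. FastQC and the build mm10 are also named, per the submitters' processing notes; versions are not given in the sources used here. Estimated counts were summed over a gene's transcripts and rounded, which changed totals by at most 0.00166%. Genes with near-identical copies share reads by model, so their counts are uncertain. Tests used R 4.3.3 with edgeR 4.0.16 and limma 3.58.1. After filterByExpr and TMM scaling, 4 group means were fitted over all 24 libraries. SE is the log2 fold change over the root of F, and intervals use the t quantile. At some genes of low level edgeR's p was larger than this SE implies, so their intervals are narrower than the p would give. An example is MGP_C57BL6NJ_G0000592, with -0.168 ± 0.216 and an unadjusted edgeR p of 0.621. How many of the intervals within 2-fold this concerns was not counted. Levels are CPM, and principal components were taken of log2 CPM (prior count 2). Shares used genes with a mean of at least 1 TPM and transcripts with a mean share of at least 5%, tested on log2 odds with a pseudocount of 0.1 TPM. A library was placed by the nearer genotype mean at each gene whose log2 CPM did not overlap between KO and WT and whose means were over 1 apart, chosen without mice 4, 20, 38 and the mouse placed. Alternatives were RLE scaling, DESeq2 1.42.0, limma-voom, other filters, fewer mice and a term for the range of mouse numbers. The scripts were tested on simulated data. Members, lists and tests were chosen with earlier results of these data known. Named identifiers are the 2 with the smallest p in each direction among genes averaging at least 1 CPM on either diet in WT mice. Library placement, permutations within ranges of mouse numbers and 2 fits without mice 4 and 38 (of WT libraries, or also without mouse 20) were added after seeing the data.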

Additional observations from a re-analysis of the deposited data

Results flagged for a closer look

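The diet effect differed between WT and KO mice at 1830 genes by edgeR's interaction test. Each genotype enters it with 6 mice per diet, and mouse 4 (labelled WT) and mouse 20 (labelled KO) are among them. KO mice on minimal magnesium came mostly from the high range of mouse numbers (5 of 6) and those on high magnesium from the low range (4 of 6). With the range as a term the count was 1035. The part of these mice in the count was tested only by leaving them out, which gave 1863.

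MGP_C57BL6NJ_G0001198 had a diet effect that was 2.03 more positive on the log2 scale in KO than in WT mice by the same test. It is a gene of few counts, 3 to 17 per WT library. It was picked for its small p in WT mice. The WT estimate is part of the interaction, so the choice favours this difference.

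Mouse 38 lay far from the other 5 WT mice on minimal magnesium in the summed share of the genes that DESeq2 called lower, at 1.51% of counts. The gap to the next mouse was 0.833 of the group's whole range, above Dixon's 95% critical value for 6 mice. Chance alone exceeds that critical value in about 1 of 20 groups, and here the genes were chosen on these mice. The cause of the gap was not tested.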

How the results depend on the processing

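No paired analysis was possible because every mouse number occurs once. The count of 0 genes called for diet in WT mice held in 24 of 25 alternatives, and DESeq2 called 216. That of 0 transcript shares held in 22 of 23, and diffSpliceDGE called 8. Genes with an interval within 2-fold numbered 10795 to 11805 when 1 mouse was left out, 7246 with a limit of 1.5-fold and 2259 with the strictest limit tried. At an unadjusted p under 0.05, leaving out 1 mouse gave 183 higher genes (without mouse 1) to 956 (without mouse 39), 244 without mouse 30, and 688 (without mouse 38) to 1354 lower genes (without mouse 39). No named identifier changed sign, which their choice by p favours, and DESeq2 alone gave them an adjusted p under 0.05 (0.00276 to 0.0403). The interaction called 1226 to 2348 genes with 1 mouse left out, 2746 with DESeq2, 4252 with limma-voom, 1164 without a filter on low counts, 1035 with a term for the range of mouse numbers, and 0 and 397 in the low and high range alone. Genes called in KO mice whose WT interval lacked the KO estimate numbered 3504 to 4121 with 1 mouse left out, 86 in the low and 2078 in the high range. With the WT libraries alone, 518 genes were lower at an unadjusted p under 0.05, and limma-voom gave -1.93 for MGP_C57BL6NJ_G0025103. The causes were not tested. The difference in genes with a count, 189.7 with all mice, ran from -9.7 (without mouse 1) to 415.7, and that in the percent of counts in the 100 highest genes, 1.49, was -0.406 without mice 4 and 38. The difference in total count, 2800384, was 1983052 within the ranges of mouse numbers (exact permutation p = 0.0114). Intervals were widest under 1 CPM and in genes under 3 TPM, where counting error and the spread between mice were not separated.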
